A study of Mus musculus with 18 samples.

Results

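The hypoxia-induced and glycolysis genes described here are a list of 36 mouse genes, followed through the first 8 h of aorta organ culture. Members were taken by gene symbol: every probe set whose annotation names a single gene, and that gene is on the list, belongs to it. Of the 36 genes, 32 had such a probe set (68 probe sets), and 30 had one with a log2 value above 4 in at least 3 of the 18 samples (58 probe sets). In the whole series, 7092 genes and 11236 probe sets passed the same filter. Aldoc was under the filter on both of its probe sets (2.29 to 3.13 over all samples), Gapdh was present only as 3 array control probe sets and is given apart, and Bnip3l, Eno1, Gpi1 and Pfkfb4 had no probe set of a single gene.

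RNA was measured on 1-colour Affymetrix arrays from the aortas of male C57Bl/6 mice, whose age the labels do not give. All animals, the vehicle controls included, had carried a subcutaneous pellet giving the mineralocorticoid receptor antagonist spironolactone at 20 mg/kg/day for 5 days. Aortas were then kept in DMEM with vehicle or with 100 nM aldosterone, the adrenal hormone that activates this receptor, for 2, 4 or 8 h. Each of the 6 groups held 3 samples, and each sample was a pool of 3 aortas, so the spread between samples is a spread between pools. There was no sample from before culture.

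Cells sense low oxygen through the transcription factor HIF, whose alpha subunit is hydroxylated by prolyl hydroxylases (Egln1, Egln2, Egln3) and destroyed while oxygen is plentiful. When the alpha subunit is spared it pairs with Arnt and binds the sequence core RCGTG at genes of glucose uptake, glycolysis, lactate export, pH control and mitophagy. Many of these genes are also driven by growth factor signalling and by Myc, and the vessel wall, which is rich in smooth muscle, makes much of its ATP by glycolysis even with oxygen present.

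The tissue label was checked against marker genes. All 8 smooth muscle markers (Acta2, Myh11, Tagln, Cnn1, Smtn, Myocd, Lmod1 and Mylk) passed the filter, and their summed level was 15.80 to 16.22 (log2) in vehicle at 2 h and 15.23 to 15.48 at 8 h. The other lists were lower at 8 h too: summed macrophage markers (6 of 6 tested) lay between 10.26 and 11.25 at 2 h and between 7.92 and 8.39 at 8 h. Fibroblast markers (6 of 6) lay between 14.50 and 14.89 and then between 13.36 and 13.89. Endothelial markers (6 of 7) lay between 10.25 and 11.21 and then between 9.41 and 9.62, and adipocyte markers (5 of 6) between 14.16 and 14.81 and then between 13.48 and 13.61. Cardiac and skeletal muscle markers (2 of 6 tested), red blood cell markers (2 of 4) and lymphocyte markers (1 of 5) were mostly below the filter, and none of the 4 Schwann cell markers passed it. In a bulk sample, fewer cells of a type and less RNA per cell cannot be told apart, and the part of these shifts in the results below was not tested. The difference between the 3′ and 5′ Gapdh control probe sets, a sign of RNA integrity, was 0.61 on average in vehicle at 2 h and 0.43 at 8 h. For the beta-actin control probe sets it was larger, at 1.95 and 1.77. Replicate 1 of vehicle at 2 h stood apart: its median over all probe sets was 4.42, against 4.01 to 4.09 in the other 17 samples, and 6 members lay more than 1 log2 unit from their group mates. Where a member's printed change or treatment difference moved by over 1.5 times without this sample, the value without it is given beside it. This holds for the probe set with the highest mean of each gene. Values of a gene's other probe sets are given with all samples.

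Between 2 and 8 h in vehicle, most of the list rose. Of the 30 members tested, 26 were higher at 8 h and 1 was lower at an adjusted p under 0.05 (limma), against 26.6% higher and 31.9% lower among all genes tested. The median change was 2.18 on the log2 scale, against -0.07 over all genes. The list was chosen with earlier results of these data known, so its contrast with all genes is a description and not an independent test. Without replicate 1 of vehicle at 2 h, again 26 were higher and 1 was lower, and the median over all genes was 0.02. The aldosterone samples, which share none of the arrays with vehicle, gave 27 higher and 1 lower, with a median of 2.25 against 0.02 over all genes, where 29.2% of all genes were higher and 27.3% lower. In all, 27 members were called in the same direction in both arms, and 2 (Eno2 and Mxi1) were called in neither. Among the 7092 genes ranked by their rise in vehicle, Car9 was number 4 and Egln3 number 5, and 10 members lay in the first 100.

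**Figure D1:**
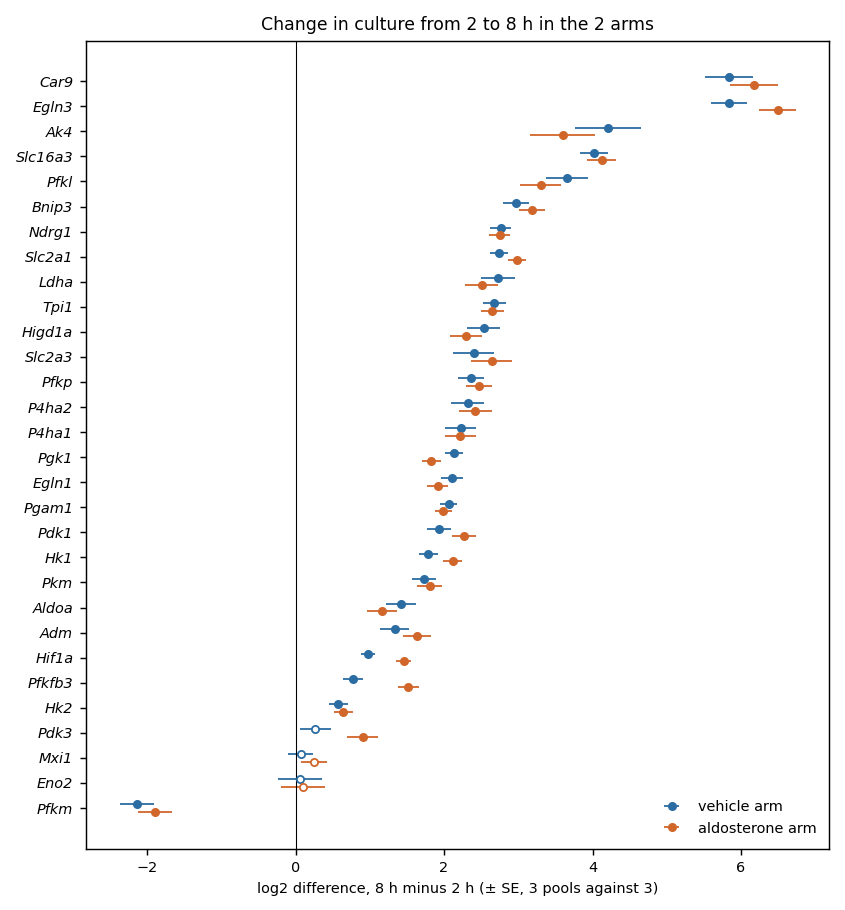
Change in expression from 2 to 8 h of culture (log2 difference, horizontal axis) for each of the 30 tested members, in the vehicle and the aldosterone samples (3 pools per group); bars are standard errors, filled symbols are called at an adjusted p under 0.05 and open symbols are not. Car9 and Egln3 sit farthest right and Pfkm is the member to the left of 0 in both arms.

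Among the oxygen-sensing members, Egln3 changed most. Egln3, the prolyl hydroxylase that HIF itself induces, read 6.29, 4.85 and 5.30 in vehicle at 2 h, 9.57, 9.53 and 9.97 at 4 h and 11.33, 11.32 and 11.29 at 8 h. Every 8 h sample lay above every 4 h sample, and every 4 h sample above every 2 h sample, with the 2 h value of replicate 1 the highest of its group. The 2 to 8 h change was 5.83 ± 0.24 (SE; 57.0-fold, adjusted p = 4.49e-12), and 6.24 without replicate 1 of vehicle at 2 h. With aldosterone, Egln3 read 4.68, 4.92 and 4.96 at 2 h and 11.30, 11.29 and 11.45 at 8 h, a change of 6.49 ± 0.24. A second probe set gave smaller values, 4.98 in vehicle and 5.09 with aldosterone. Egln1, the main prolyl hydroxylase in most tissues, went from 8.76, 8.20 and 8.24 at 2 h to 10.56, 10.41 and 10.56 at 8 h in vehicle (2.11 ± 0.15, adjusted p = 2.34e-09), a 4.32-fold rise with no overlap of samples. Egln2, which is not on the list and is shown because it is the third enzyme of the family, was at 7.69 and 7.82 in vehicle at these times (adjusted p = 0.62).

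Hif1a, the oxygen-labile alpha subunit, was 10.95, 10.61 and 10.65 in vehicle at 2 h, 11.67, 11.70 and 11.64 at 4 h and 11.72, 11.70 and 11.73 at 8 h. The 4 h samples all lay above the 2 h samples, and the 8 h samples overlapped the 4 h samples. The first step was 0.94 ± 0.09 (adjusted p = 1.2e-06) and the second 0.04 ± 0.09 (adjusted p = 0.758). With aldosterone both steps were called, at 1.10 and 0.36. The second was called on 1 of the 3 Hif1a probe sets (0.34 to 0.46). These are mRNA levels, and the HIF-1alpha protein was not measured.

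Car9 and Slc16a3 stood out among the members that handle acid. Car9, a cell-surface carbonic anhydrase that hydrates CO2 outside the cell, was 4.58, 4.00 and 4.37 in vehicle at 2 h, 7.26, 7.44 and 8.24 at 4 h and 10.26, 9.99 and 10.21 at 8 h. The 3 times did not overlap, and the 2 h values sat near the filter level, so the fold is imprecise. The change from 2 to 8 h was 5.84 ± 0.32 (57.2-fold, adjusted p = 1.41e-10) in vehicle and 6.18 ± 0.32 (72.5-fold) with aldosterone, where 1 of the 2 h samples read 2.98. Slc16a3, the monocarboxylate transporter MCT4 that exports lactate, rose from 5.96, 5.24 and 5.52 to 9.64, 9.60 and 9.55 (4.02 ± 0.19, 16.2-fold, adjusted p = 2.71e-11) and by 4.12 with aldosterone. Ldha, the lactate dehydrogenase subunit that favours lactate formation, rose from 11.02, 9.68 and 10.32 to 13.25, 13.07 and 12.88 (2.73 ± 0.23, 6.62-fold, adjusted p = 1.94e-08). All 8 h samples of both genes lay above all 2 h samples.

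Promoter windows are shown for 6 members that rose by different amounts (Car9, Slc16a3, Pgk1, Ldha, Bnip3 and Pfkl) and for Pfkm, which fell. The windows below are taken from RefSeq promoters (build GRCm38.p6) and end before the annotated start. For a gene with several entries, the entry with the most HIF core matches before the start is shown. Each stretch holds those matches. Ldha has another entry with 1 match before the start, and 1 entry of Pfkm has none. Another Pfkm entry has as many matches before the start as the one shown, an ACGTG and a GCGTG, neither within an E-box. Of these tied entries, the one at the lower coordinate is shown. Capitals mark the HIF core ACGTG or GCGTG, read on either strand, so that CACGT and CACGC are the same core on the other strand, and CACGTG holds it on both strands and is also the E-box.
Car9, chr4:43506966-43507025, plus strand: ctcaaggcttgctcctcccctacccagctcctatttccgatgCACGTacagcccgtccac
Slc16a3, chr11:120949007-120949066, plus strand: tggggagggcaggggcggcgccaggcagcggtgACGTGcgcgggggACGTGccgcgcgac
Pgk1, chrX:106186930-106186989, plus strand: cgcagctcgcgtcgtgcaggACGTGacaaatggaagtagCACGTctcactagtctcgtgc
Ldha, chr7:46845644-46845803, plus strand: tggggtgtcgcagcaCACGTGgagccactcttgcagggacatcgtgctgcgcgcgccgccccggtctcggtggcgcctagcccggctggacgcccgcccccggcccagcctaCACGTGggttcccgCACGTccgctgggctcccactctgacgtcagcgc
Bnip3, chr7:138909526-138909636, minus strand: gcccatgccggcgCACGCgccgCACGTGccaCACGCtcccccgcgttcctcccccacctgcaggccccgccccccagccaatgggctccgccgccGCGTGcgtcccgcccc
Pfkl, chr10:78009878-78009927, minus strand: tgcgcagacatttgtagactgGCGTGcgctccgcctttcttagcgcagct
Pfkm, chr15:98092429-98092478, plus strand: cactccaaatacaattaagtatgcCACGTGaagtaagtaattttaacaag

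The motif was found in the 300-base window (250 bases before the start and 50 after) of 26 of the 28 tested members with an entry (92.9%), and in 4025 of 5745 tested genes with an entry (70.1%). Counted by window, since a gene can have several, it was in 35 of 43 member windows (81.4%) and in 63.6% of those of all genes tested. The members' windows had a median GC content of 65%, against 61.3%, and both motifs contain CpG. Eno2 and Tpi1 had an entry but no window with the motif, and some entries of other members also lacked it. Pfkm, the member that fell, has an E-box in the window shown above, as do Ldha and Bnip3, which rose. Tpi1, which has no match, rose 6.40-fold in vehicle. A match describes these letters only.

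The glucose transporters and hexokinases changed at different times. Slc2a1, the GLUT1 transporter, rose in vehicle from 10.82, 10.45 and 10.95 at 2 h to 12.33, 12.55 and 12.67 at 4 h and 13.42, 13.42 and 13.58 at 8 h, with no overlap between times (2.74 ± 0.12 from 2 to 8 h, 6.67-fold, adjusted p = 7.34e-12). Slc2a3, the high-affinity GLUT3, was 5.76, 4.42 and 5.66 at 2 h and 5.72, 5.81 and 5.26 at 4 h, where the samples overlapped, and 7.71, 7.47 and 7.86 at 8 h. Its 2 to 4 h step was not called in vehicle (0.31, adjusted p = 0.393), nor without replicate 1 of vehicle at 2 h (0.55, adjusted p = 0.131). Its second probe set read -0.55 with all samples, and on that set replicate 1 was the highest vehicle sample at 2 h (6.09). The 4 to 8 h step of Slc2a3 was 2.09 ± 0.28 (adjusted p = 1.97e-05). Hk1, the hexokinase of most tissues, rose by 1.79 ± 0.13 (3.46-fold) and was already 1.10 higher at 4 h. The second Hk1 probe set gave a larger rise in vehicle from 2 to 8 h, 3.02. Hk2, the insulin- and HIF-responsive hexokinase, went up and came back: 11.25, 10.61 and 10.96 at 2 h, 12.18, 12.29 and 12.26 at 4 h, and 11.58, 11.40 and 11.56 at 8 h. The 4 h samples lay above both other times. The steps were 1.30 (adjusted p = 8.01e-07) and -0.73 (adjusted p = 0.000261) in vehicle and 1.23 and -0.58 with aldosterone.

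**Figure D2:**
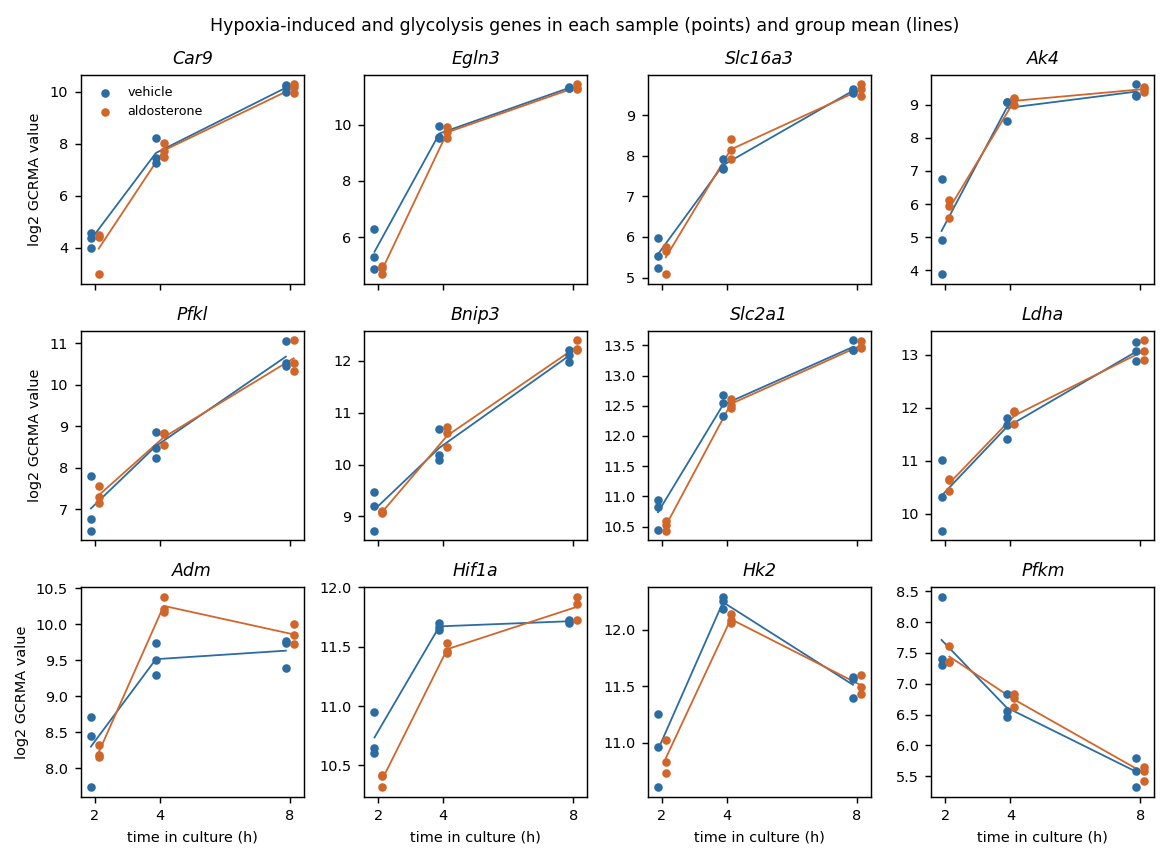
Log2 expression (vertical axis) of 12 members at 2, 4 and 8 h of culture (horizontal axis), with 1 point for each pooled sample and a line through the group means for the vehicle and aldosterone arms. Car9, Egln3 and Slc16a3 climb at both steps, Hk2 peaks at 4 h, and Pfkm falls.

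The 3 subunits of phosphofructokinase, which commits glucose to glycolysis, moved in opposite directions. Pfkl, the liver-type subunit, read 7.82, 6.49 and 6.77 in vehicle at 2 h and 11.07, 10.52 and 10.45 at 8 h (3.66 ± 0.28, 12.6-fold, adjusted p = 7.82e-09). Pfkp, the platelet-type subunit, read 9.22, 8.86 and 8.82 and then 11.43, 11.30 and 11.27 (2.36 ± 0.18, adjusted p = 5.85e-09). Pfkm, the muscle-type subunit, fell from 8.41, 7.41 and 7.31 through 6.56, 6.46 and 6.83 at 4 h to 5.58, 5.80 and 5.32 (-2.14 ± 0.23, adjusted p = 3.97e-07), with no overlap at either step. Without replicate 1 of vehicle at 2 h, which was highest for all 3 subunits at that time, the Pfkm change was -1.79 (adjusted p = 7.1e-08). With aldosterone the changes were 3.30, 2.47 and -1.89. Of the 8 smooth muscle markers, 6 were lower and 1 higher at 8 h in vehicle, and their part in the fall of Pfkm was not tested. Of the cardiac and skeletal muscle markers, whose summed level was 5.72 to 6.34 at 2 h and 4.97 to 5.53 at 8 h, neither of the 2 tested was called.

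Lactate dehydrogenase and pyruvate dehydrogenase kinase gave the same kind of contrast with relatives outside the list, which were chosen for that reason after their values were seen. Ldhb, the subunit that favours pyruvate formation, fell from 8.99 to 6.63 in vehicle (-2.36, adjusted p = 1.41e-09) while Ldha rose. Pdk1, which inhibits entry of pyruvate into the citric acid cycle, rose from 7.49, 6.72 and 7.29 to 9.25, 8.99 and 9.06 (1.93 ± 0.16, adjusted p = 2.23e-08). Its second step was 1.74 (adjusted p = 4.25e-07) and its first 0.19 (adjusted p = 0.362). Without replicate 1 of vehicle at 2 h the first step of Pdk1 was 0.36 (adjusted p = 0.0652). With all samples the second probe set of Pdk1 rose by 0.90 at that step (adjusted p = 0.0133). Pdk4 went from 10.79 to 9.23 (-1.55, adjusted p = 2.42e-05). Pdk3 was called with aldosterone (0.90, adjusted p = 0.00119) and not in vehicle (0.27, adjusted p = 0.276; 0.44 without replicate 1 of vehicle at 2 h, adjusted p = 0.0796), and the F test of a treatment effect that differs between times did not call it.

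**Figure D3:**
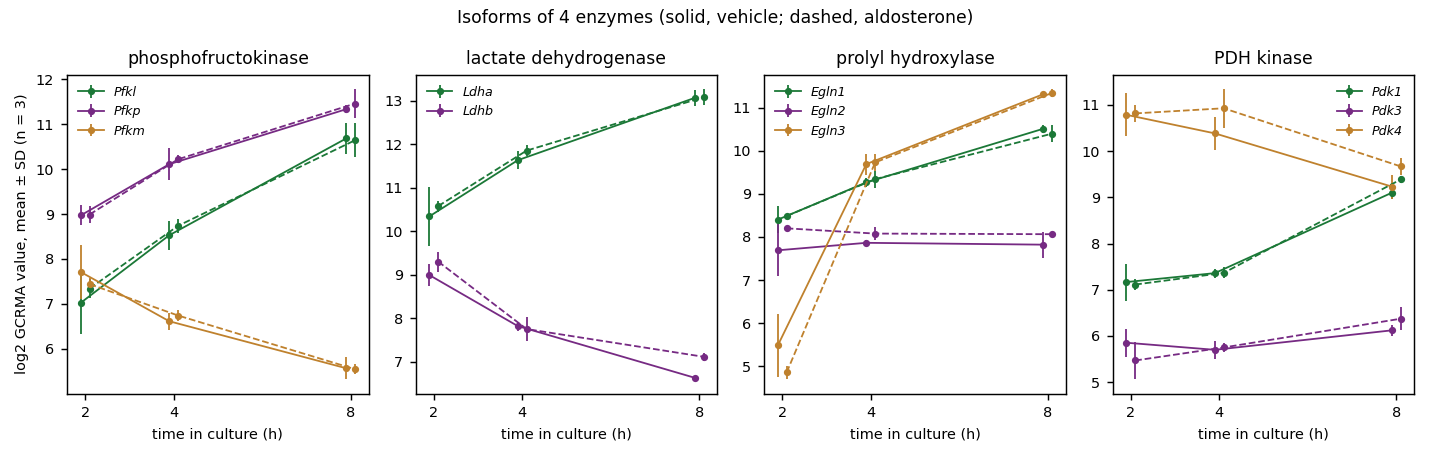
Group mean log2 expression with SD (vertical axis, 3 pools per group) at 2, 4 and 8 h for phosphofructokinase, lactate dehydrogenase, prolyl hydroxylase and pyruvate dehydrogenase kinase isoforms in vehicle (solid lines) and aldosterone (dashed lines). Pfkl, Pfkp and Ldha rise while Pfkm and Ldhb fall; vertical positions of different genes are not comparable because probe sets differ.

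The remaining glycolytic enzymes of the list that were tested also rose from 2 to 8 h in vehicle, except Eno2. In vehicle from 2 to 8 h, Tpi1 rose by 2.68, Pgk1 by 2.13, Pgam1 by 2.06, Pkm by 1.73 and Aldoa by 1.42, all called. Tpi1 read 9.53, 9.10 and 9.19 at 2 h and 12.31, 11.77 and 11.77 at 8 h, and Pgk1 11.39, 11.49 and 11.88 and then 13.56, 13.69 and 13.91, so neither gene's samples overlapped. Gapdh, seen through its 3 control probe sets in a fit that kept them, read 12.35, 11.66 and 11.82 in vehicle at 2 h and 13.69, 13.52 and 13.38 at 8 h on the 3′ set, without overlap. The 3 sets rose by 1.59 to 1.79 in vehicle and by 1.51 to 1.68 with aldosterone, all called. Aldoa changed by 0.10 from 2 to 4 h (adjusted p = 0.708), or by 0.36 without replicate 1 of vehicle at 2 h (adjusted p = 0.107), and rose by 1.32 from 4 to 8 h. Pkm gained 0.37 from 2 to 4 h in vehicle (adjusted p = 0.0789), and 0.62 without replicate 1 of vehicle at 2 h (adjusted p = 0.000467). Pfkfb3, which makes the phosphofructokinase activator fructose 2,6-bisphosphate, was 9.61, 9.25 and 9.81 at 2 h, 10.60, 10.93 and 10.61 at 4 h and 10.32, 10.29 and 10.36 at 8 h. Its 4 to 8 h fall in vehicle (-0.39, adjusted p = 0.036) was not seen in its second probe set, which read 0.41. Eno2, the neuronal enolase, rose by 1.10 from 2 to 4 h (adjusted p = 0.0071) and fell by 1.05 on the log2 scale from 4 to 8 h (adjusted p = 0.00996), and its 8 h samples overlapped those at 2 h.

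The other HIF-linked members act in mitophagy, collagen hydroxylation and signalling. Bnip3, a mitophagy receptor, rose from 9.48, 8.73 and 9.19 to 12.20, 12.12 and 11.98 (2.97 ± 0.17, 7.82-fold, adjusted p = 2.48e-10). Ak4, a mitochondrial adenylate kinase, was scattered in vehicle at 2 h (3.88, 4.92 and 6.76) and close together at 8 h (9.28, 9.29 and 9.62). Its change of 4.21 ± 0.44 became 3.55 without replicate 1 of vehicle at 2 h and 5.00 without replicate 3, and the aldosterone arm gave 3.60. The other Ak4 probe set past the filter rose less, by 2.64 in vehicle and 3.52 with aldosterone. Ndrg1, a stress-responsive gene often used as a hypoxia marker, and Higd1a, a mitochondrial protein induced by hypoxia, rose by 2.76 and 2.53. The other 2 Higd1a probe sets gave smaller values, 0.56 and 0.67. P4ha1 and P4ha2, the collagen prolyl 4-hydroxylase subunits, rose by 2.22 and 2.32. Adm, which encodes the vasodilator adrenomedullin, was 8.72, 7.74 and 8.44 at 2 h and 9.30, 9.74 and 9.50 at 4 h, and its 8 h samples (9.73, 9.76 and 9.39) overlapped those at 4 h. Mxi1, a Myc antagonist, stayed between 6.77 and 7.81 in all 9 vehicle samples.

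The 2 steps of culture were not alike for all members. In vehicle, 23 of 30 members were higher and 2 lower from 2 to 4 h (14.6% and 25.6% of all genes), and 22 higher and 4 lower from 4 to 8 h (20.7% and 17.0%). These steps share the 4 h samples, so only each member's own pair of calls is given. A rise at both steps was called for 17 members. For Adm, Ak4 and Hif1a a rise was called at the first step and not at the second. For Aldoa, Pdk1, Pkm and Slc2a3 it was called at the second and not at the first. Pkm was called at both without replicate 1 of vehicle at 2 h, and the other probe set of Pdk1 was called at both with all samples. Eno2, Hk2 and Pfkfb3 rose and then fell. Mxi1 fell (-0.45) and then rose (0.52), but its fall was not called without replicate 1 of vehicle at 2 h (-0.27, adjusted p = 0.181). Pfkm fell at each step, and Pdk3 was not called at either step. In the aldosterone arm 25 members were higher and 1 lower at the first step (17.3% and 21.3% of all genes), 24 higher and 3 lower at the second (21.0% and 16.6%), and 20 rose at both.

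**Figure D4:**
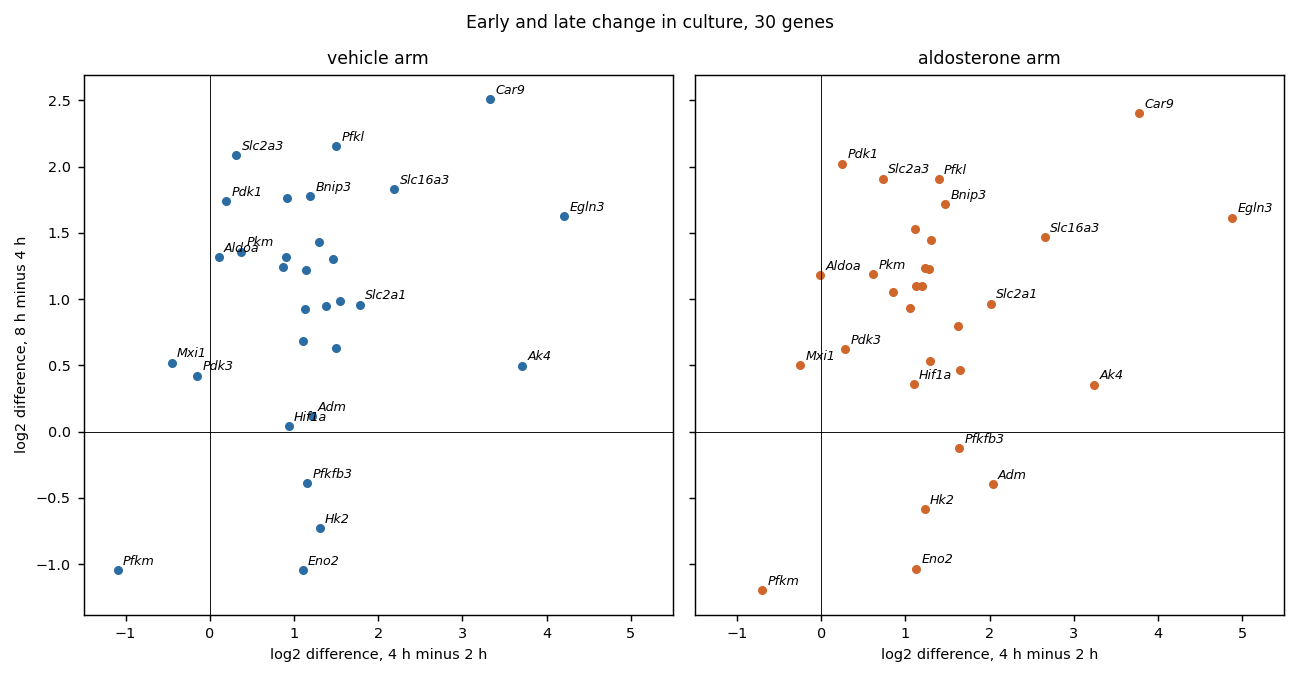
Change from 2 to 4 h (horizontal axis, log2) against change from 4 to 8 h (vertical axis, log2) for the 30 tested members, in vehicle (left) and aldosterone (right) samples. Egln3 and Ak4 lie far to the right, Pdk1 and Slc2a3 high with little early change, and Hk2 and Eno2 in the lower right; the 2 axes share the 4 h samples and are not independent.

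Genes of the pathway outside the list were counted in 3 groups. Among all genes tested, 26.6% were higher and 31.9% lower in vehicle from 2 to 8 h, which is the comparison for all 3 groups. These groups too were chosen with earlier results of these data known, so the comparison is not an independent test. Of 26 tested of 34 other hypoxia-induced genes, 17 were higher and 4 lower in vehicle from 2 to 8 h, with a median of 1.22. Ero1a, an oxidase of the endoplasmic reticulum, rose by 4.45, the cytokine Mif by 3.72, the mitochondrial protein Fam162a by 2.67 and Rbpj, the transcription factor of Notch signalling, by 2.35, and Edn1, the vasoconstrictor endothelin-1, fell by 3.52 on the log2 scale. In the aldosterone arm 19 of the 26 other hypoxia-induced genes were higher and 3 lower (29.2% and 27.3% of all genes). Of 12 tested of 29 other glycolysis and adjoining enzymes, 2 were higher and 6 lower in vehicle, with a median of -0.51. Of 7 tested of 12 HIF subunits and regulators, 1 was higher and 1 lower, both close to the filter level.

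Aldosterone against vehicle was the treatment comparison, and no member passed the threshold. At 2, 4 and 8 h, 0 of 30 members were called by limma (0.0705%, 0.240% and 1.0% of all genes were called), and the mean of the 3 times gave 0 of 30 (1.10% of all genes). At an unadjusted limma p under 0.05, 3, 2, 1 and 4 of the 30 members passed in these comparisons. Of all 7092 genes, 782, 267, 444 and 598 passed. The moderated F test of a difference between times also gave 0 members (0.155% of all genes). The members' median differences were -0.05, 0.12 and 0.03 at 2, 4 and 8 h, against -0.07, 0.01 and 0.01 over all genes. The 2 h medians changed sign without replicate 1 of vehicle at 2 h, to 0.10 for the members and 0.04 for all genes, so no direction is read from them. For the difference at a single time, the 95% interval had a median half-width of 0.39 on the log2 scale, and it lay wholly within 1 log2 unit of 0 for 26, 28 and 29 of the 30 members.

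Adm had the smallest p of the list at 4 h: 9.30, 9.74 and 9.50 in vehicle against 10.38, 10.17 and 10.21 with aldosterone. All 3 aldosterone samples lay above the vehicle samples, by 0.74 ± 0.19 (95% interval 0.34 to 1.14; 1.67-fold, adjusted p = 0.275). Its difference was -0.08 at 2 h (0.13 without replicate 1 of vehicle at 2 h) and 0.23 at 8 h. Without replicate 1 or 2 of vehicle at 2 h, samples that are not in the 4 h contrast, Adm passed the threshold at 4 h (adjusted p = 0.0495 and 0.0268). Pfkfb3 was the leading member at 8 h, at 10.32, 10.29 and 10.36 in vehicle and 10.70, 10.76 and 11.08 with aldosterone, without overlap (0.52 ± 0.14, interval 0.23 to 0.81, 1.43-fold, adjusted p = 0.129). It passed without replicate 2 of vehicle at 2 h (adjusted p = 0.0491). At 2 h Hif1a was lower with aldosterone, at 10.42, 10.32 and 10.41 against 10.95, 10.61 and 10.65 (-0.35 ± 0.09, interval -0.55 to -0.15, adjusted p = 0.203), and by -0.24 without replicate 1 of vehicle at 2 h (adjusted p = 0.143). Without that sample Ldha, which was higher with aldosterone, had the smallest limma p of the list at 2 h (0.58, adjusted p = 0.138), ahead of Hif1a. Neither gene was called. Higd1a differed by 0.61 at 2 h (adjusted p = 0.321) and by 0.30 without replicate 1 of vehicle at 2 h (adjusted p = 0.453). With all samples its other probe sets read -0.16 and -0.02. On both of these sets replicate 1 was the highest vehicle sample at 2 h (8.88 and 6.52), so no direction is read from them. On the mean of the times the Higd1a probe sets ranged from 0.05 to 0.41 with all samples (adjusted p = 0.195 for the one that stands for the gene). That one passed without replicate 3 of vehicle at 2 h (0.51, adjusted p = 0.023). Ak4 differed by 0.69 at 2 h (adjusted p = 0.577), by 0.03 without replicate 1 of vehicle at 2 h and by 1.47 without replicate 3 (adjusted p = 0.0221). With all samples the other Ak4 probe set past the filter had the opposite sign at 2 h (-0.675). On the mean of the times the 2 sets read -0.15 and 0.33, so no direction is read from them.

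**Figure D5:**
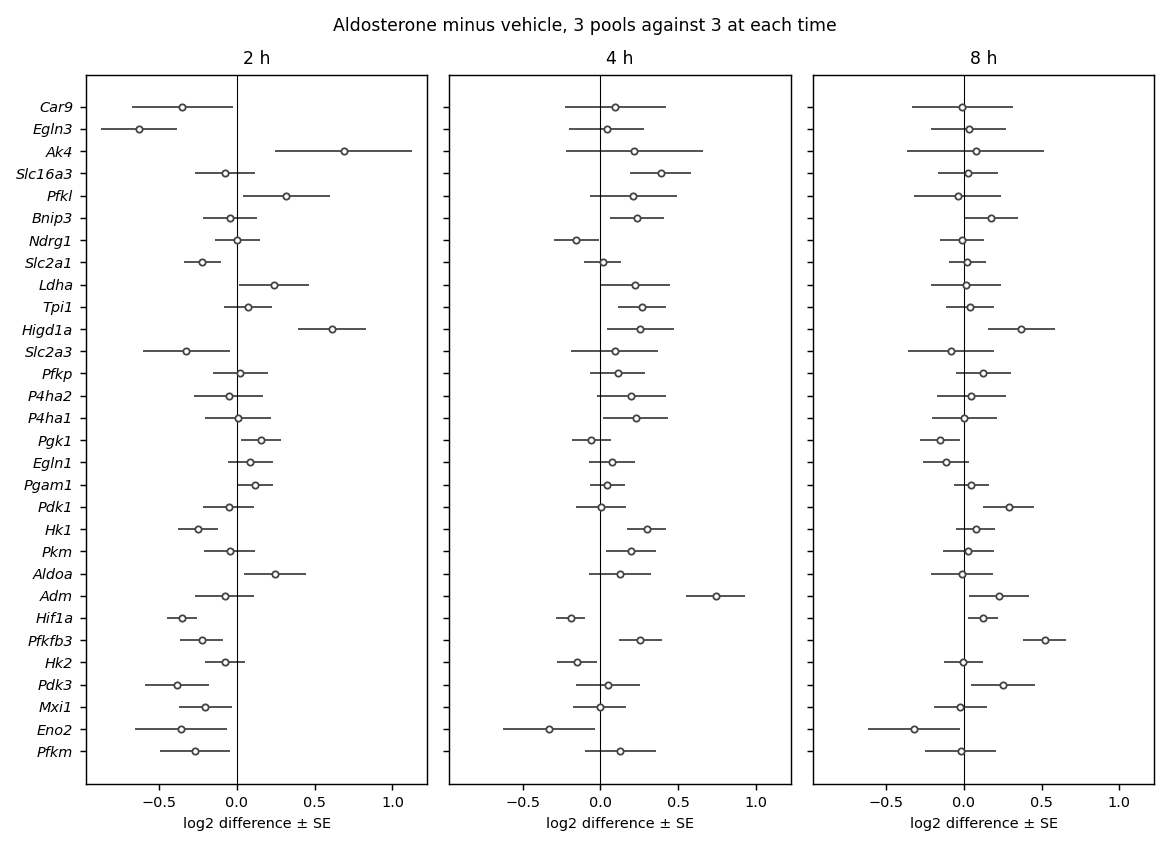
Difference between aldosterone and vehicle samples (log2, horizontal axis) for each tested member at 2, 4 and 8 h, with standard errors as bars (3 pools per group). All symbols are open because no member passed an adjusted p of 0.05; Adm at 4 h (0.74) and Pfkfb3 at 8 h (0.52) lie right of 0, and Hif1a at 2 h (-0.35) left of it.

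Samples of the 2 treatments were fully separated for more members than were called. At 4 h, 6 of 30 members were higher in every aldosterone sample than in every vehicle sample (5.80% of all genes) and 2 were lower (4.77%); at 8 h, 5 were higher (9.11%) and 0 lower (5.36%), and at 2 h, 0 were higher (3.41%) and 2 lower (10.5%). Of the related lists, the collagen cross-linking enzyme Lox was the one gene called, higher with aldosterone at 8 h by 0.95 (adjusted p = 0.00928) and on the mean of the times by 0.45 (adjusted p = 0.0413).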

How the data were processed

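Per the submitters' processing notes, the authors made the deposited log2 expression values with GCRMA, which corrects background, normalizes across arrays and summarizes each probe set; which version and settings they chose is not given in the sources used here. GCRMA can exaggerate or shrink changes of dim probe sets, so folds that start near a log2 value of 4 are imprecise. No raw array files were used here.

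Probe sets naming 1 gene were kept where the value was above 4 in at least 3 of 18 samples, and the probe set with the highest mean stood for its gene. Array control probe sets were left out; a fit that kept Gapdh's was added after seeing the data. Of 20393 probe sets with 1 symbol, 20364 matched the RefSeq table. limma 3.58.1 in R 4.3.3 fitted 1 mean per group over the 18 samples (intensity trend, 12 residual and 17.2 total degrees of freedom; median within-group SD 0.235), with Benjamini-Hochberg adjustment over 7092 genes and a threshold of 0.05. The script was tested on simulated data. With 3 arrays per group, their number limits precision. No batch is recorded in the sources used here.

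Members with a probe set past the filter may be named; sample values are kept to members called from 2 to 8 h in vehicle or for aldosterone, Hif1a and Gapdh, and, of related genes, up to 6 called per comparison by smallest p. Members and lists were chosen with earlier results of these data known. Alternatives covered the trend, the filter, the probe set per gene, scaling, array weights, the replicate number, each sample left out and the promoter window.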

Additional observations from a re-analysis of the deposited data

How the results depend on the processing

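Counts of members called between times were within 1.5 times the main count under every alternative run, from 23 to 28 of 30. Of 8060 alternatives of single members, 7979 kept direction and side of the threshold, 60 lost the call, 20 gained it and 1 reversed: Pfkfb3 from 4 to 8 h in vehicle was 0.0107 (adjusted p = 0.964) on the mean of its probe sets, against -0.39, because its second probe set read 0.41. Weakest were Mxi1 from 2 to 4 h in vehicle, lost in 15 of 27, and Slc2a3 from 2 to 4 h with aldosterone, lost in 16. For aldosterone against vehicle the counts were 0 except as follows. Array weights gave 1 member at 4 h (Adm), 1 at 8 h (Pfkfb3) and 1 on the mean (Higd1a). Leaving out each sample gave 0 to 1 at 2, 4 and 8 h and 0 to 2 on the mean: Adm at 4 h without vehicle 2 h replicate 1 or 2 (adjusted p = 0.0495 and 0.0268), Pfkfb3 at 8 h without vehicle 2 h replicate 2 (0.0491), Ak4 at 2 h without vehicle 2 h replicate 3 (1.47, 0.0221), and Ak4 and Higd1a on the mean without that sample; the first 2 keep their estimate, since those samples are not in the contrast. With all samples the other Ak4 probe set past the filter read -0.675 at 2 h, opposite in sign to the one that stands for the gene. Centring and quantile scaling moved the median of all genes from 2 to 4 h in vehicle from -0.13 to 0.02 and -0.03. Leaving out replicate 1 of vehicle at 2 h moved it to -0.02. The labels give same-numbered replicates only a number in common, and their deviations correlated over 0.1 in 6 of 45 pairs. Whether they shared anything else is not recorded in the sources used here. With the replicate block, 27 members were called from 2 to 8 h in vehicle and 0 for aldosterone at each time, and no count of members changed. Dim members (Car9, Ak4, Eno2 and Slc2a3 at 2 h) have the least certain folds.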
